A study of Mus musculus with 15 samples.

Results

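The AP-1 and immediate early genes are followed here in RNA-seq of mouse adult neural stem cells (aNSCs): the Fos family members Fos, Fosb, Fosl1 and Fosl2, the Jun family members Jun, Junb and Jund, and the inducible transcription factor genes Egr1, Atf3 and Ier2. These 10 genes were listed by name and found through their Ensembl identifiers among the 53801 genes of the count table, each symbol matching 1 identifier. The rule uses no measured value, although the list was drawn up with earlier results of these data known. All 10 passed the filter on low counts in every comparison. The aNSCs were primary cultures from C57BL6/J-129sv mice labelled as 2 months old, and all of them carried the Rosa26-CreERT2 transgene, a Cre recombinase that is driven by the ubiquitous Rosa26 locus and becomes active when 4-hydroxytamoxifen (4-OHT) is added. The untreated group (n = 5) came from Trrap Fl/+ mice, which have 1 floxed copy of Trrap, the scaffold subunit of several histone acetyltransferase complexes, and received no 4-OHT. The Fl/+ 4-OHT group (n = 5) came from the same 5 mice, numbered 19, 24, 26, 35 and 36, and was exposed to 4-OHT, so that 1 copy of Trrap can be recombined. The labels put the exposure at 5 days, and the study's methods describe a shorter exposure followed by fresh medium. The Fl/Fl 4-OHT group (n = 5) came from mice 27, 28, 29, 37 and 39 with both copies floxed and had the same exposure. Fl/Fl cultures without 4-OHT were not analysed here. Each group had 3 cultures labelled male and 2 labelled female.

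AP-1 is a dimer of bZIP proteins. Jun proteins can pair with one another or with Fos proteins, whereas Fos proteins need a Jun partner to bind DNA well, and the make-up of the dimer sets how strongly it activates its targets. Fos, Fosb, Junb, Egr1, Ier2 and Atf3 belong to the immediate early genes, whose transcription starts within minutes of growth factor or stress signals without new protein synthesis, through factors such as SRF, the ternary complex factors and CREB that are already present in the cell. Their transcripts are short-lived. Jund is a more constantly expressed member, and Fosl1 and Fosl2 encode Fos proteins without the strong activation domain of Fos. Neural stem cells in culture are kept dividing by EGF and bFGF, which act through the MAP kinase pathway that feeds these genes.

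The 250 bases before the transcription start are printed for 6 of the members, chosen among the 7 members with a RefSeq promoter in the table used here (not Fosl1, Egr1 and Ier2) because they either rose against untreated cultures (Fos, Fosb, Fosl2 and Junb) or stood apart in 1 library (Jun and Atf3). They are RefSeq sequences on GRCm38.p6, 5′ to 3′ on the gene's own strand, from chr12:85473640-85473889 (plus) for Fos, chr7:19310046-19310295 (minus) for Fosb, chr5:32136222-32136471 (plus) for Fosl2, chr8:84978749-84978998 (minus) for Junb, chr4:95052223-95052472 (minus) for Jun and chr1:191183334-191183583 (minus) for Atf3. Capitals mark matches, on either strand, to the motifs searched.
Fos: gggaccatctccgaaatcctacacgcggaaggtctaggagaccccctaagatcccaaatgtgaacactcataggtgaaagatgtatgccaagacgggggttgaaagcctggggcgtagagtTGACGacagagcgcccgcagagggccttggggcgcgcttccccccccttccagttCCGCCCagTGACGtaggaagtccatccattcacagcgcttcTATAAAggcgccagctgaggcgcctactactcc
Fosb: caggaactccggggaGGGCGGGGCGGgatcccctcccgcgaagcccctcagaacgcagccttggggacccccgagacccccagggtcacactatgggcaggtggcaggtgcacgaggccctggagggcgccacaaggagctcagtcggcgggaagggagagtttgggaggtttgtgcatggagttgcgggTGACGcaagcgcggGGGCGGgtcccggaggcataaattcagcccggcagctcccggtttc
Fosl2: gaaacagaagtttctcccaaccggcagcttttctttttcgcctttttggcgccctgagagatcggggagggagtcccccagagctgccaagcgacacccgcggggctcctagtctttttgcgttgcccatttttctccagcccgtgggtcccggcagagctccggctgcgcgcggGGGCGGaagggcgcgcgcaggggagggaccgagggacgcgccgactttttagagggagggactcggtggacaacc
Junb: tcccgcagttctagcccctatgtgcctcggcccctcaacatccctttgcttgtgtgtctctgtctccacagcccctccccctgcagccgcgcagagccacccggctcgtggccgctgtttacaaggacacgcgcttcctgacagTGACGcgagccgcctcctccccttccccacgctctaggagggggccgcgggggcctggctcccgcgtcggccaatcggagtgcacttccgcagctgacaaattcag
Jun: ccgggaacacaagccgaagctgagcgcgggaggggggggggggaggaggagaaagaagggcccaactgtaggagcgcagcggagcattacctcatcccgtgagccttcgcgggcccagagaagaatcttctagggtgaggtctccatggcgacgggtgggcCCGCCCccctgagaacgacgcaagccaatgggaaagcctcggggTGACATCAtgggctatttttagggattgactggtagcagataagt
Atf3: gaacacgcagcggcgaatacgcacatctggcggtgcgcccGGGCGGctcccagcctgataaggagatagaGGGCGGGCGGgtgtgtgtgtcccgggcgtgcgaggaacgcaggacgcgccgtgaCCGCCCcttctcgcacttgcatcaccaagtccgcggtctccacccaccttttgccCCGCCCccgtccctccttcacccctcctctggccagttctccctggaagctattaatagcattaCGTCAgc

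The seventh promoter is that of Jund, whose RefSeq window ends upstream of the start of the GENCODE gene. The windows of Fosl2 and Atf3 lie inside the GENCODE genes (chr5:32135801-32157842 and chr1:191170296-191218039), so their RefSeq starts are internal to these, and positions before the start are counted from the RefSeq start in every case. Both strands were searched. The core of the CREB site, TGACG, occurred in 4 of the 7 promoters, those of Fos, Fosb, Junb and Atf3, and in 17.8% of 32851 promoters of the same length. In Fos the matches began 129 and 66 bases before the start, in Fosb 60, in Junb 106 and in Atf3 7 bases before it. The GC box GGGCGG, bound by SP1 and related factors, was present in Fos, Fosb, Fosl2, Jun and Atf3, which is 5 of 7, and in 32.7% of all promoters. The printed windows were 58.4% (Fos) to 68.8% (Fosb) G or C and that of Jund 47.6%, beside a median of 52.4% over all promoters. The motif shares were not compared with promoters of like GC content. The 8-base site TGACNTCA of AP-1 and CREB proteins, which contains the CREB core when N is G, was found in Jun only, 45 bases before the start (7.49% of all promoters). The TATA box TATAAA was found in Fos only, at 33 bases (12.4%). No member's window held the letters of the AP-1 site TGANTCA (6.75% of all promoters). The CArG box of SRF (1.47%) was not matched in any of them, nor was the EGR site GCGTGGGCG (0.536%). Sequence upstream of these windows was not searched, so sites there would be missed. A match describes the letters in these windows and is not evidence of a factor bound there.

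The libraries held 25.7 to 32.2 M counts, so that 3 counts, taken as the floor of detection, corresponded to 0.0932 to 0.118 CPM (counts per M counts of a library, scaled here with TMM factors). The stem cell markers Nes (489 to 1380 CPM) and Sox2 (200 to 509 CPM) were present in every library. Trrap itself stood at 193, 214, 184, 179 and 181 CPM in untreated mice 19, 24, 26, 35 and 36, at 138, 204, 171, 165 and 142 CPM in the same mice after 4-OHT, and at 92.9, 115, 142, 89.2 and 82.8 CPM in Fl/Fl mice 27, 28, 29, 37 and 39. It fell in Fl/Fl cultures by 0.64 on the log2 scale (SE 0.16, adjusted p = 0.0115, edgeR quasi-likelihood test), but Fl/Fl 29 lay inside the range of the Fl/+ 4-OHT cultures. The counts cover all exons, so transcripts without the floxed part still count. The library labelled Fl/Fl 39, female, had Xist at 0.313 CPM and the Y-linked Eif2s3y at 61.2 CPM, against its sex label. Library Fl/Fl 37 stood apart in several members. Fl/+ mouse 36, labelled male, had Xist at 5.89 CPM untreated and 74.7 CPM after 4-OHT beside Eif2s3y, a Y-linked gene, at 79.2 and 67.5 CPM. With 4-OHT in Fl/+ cultures, Fosl2 rose by 1.26 without its untreated library (adjusted p = 0.00827) and by 1.42 without its 4-OHT library (0.0218), and Junb by 0.65 (0.0328) and, not called, 0.78 (0.0758). Values without Fl/Fl 37 and without Fl/Fl 39 are given beside the genotype differences of the members and beside their calls against untreated cultures.

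In Fl/Fl 4-OHT cultures, 6 members rose against untreated Fl/+ cultures (Fos, Fosb, Fosl1, Fosl2, Junb and Egr1) and Jund fell. This contrast holds the Trrap deletion and the 4-OHT exposure together. Within Fl/+ cultures, with against without 4-OHT, Fosl2 and Junb rose. That contrast holds the exposure, the activity of Cre and the possible loss of 1 copy of Trrap, which cannot be told apart. The within-mouse log2 differences of Trrap ran from -0.48 to -0.06 there, and its change of -0.21 was not called (adjusted p = 0.234). Between Fl/Fl and Fl/+ cultures, both given 4-OHT, Egr1 rose and Jund fell. Against the background of all genes, 2 of 10 members called after Trrap deletion (1 higher, 1 lower) stand beside 31.7% of 15036 tested genes (16.8% higher and 15.0% lower). For 4-OHT, 2 of 10 called, both higher, stand beside 13.8% of 14821 genes (7.34% higher and 6.45% lower). With the mouse as a replicate block, 3 of 10 were called (Egr1 being the third, at an adjusted p of 0.0435 by the edgeR test) beside 25.7% of all genes. For both differences together, 7 of 10 called stand beside 30.7% of 15032 genes (15.7% higher and 15.1% lower). The groups did not overlap in 1 member after Trrap deletion (22.6% of all genes), in 2 after 4-OHT (12.0%) and in 5 for both together (23.1%). After Trrap deletion or after 4-OHT, the share of members called was thus of the order seen over all genes. The 3 contrasts share groups and are not independent. In bulk RNA, fewer cells that express a gene and less of its RNA per cell cannot be told apart.

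**Figure D1:**
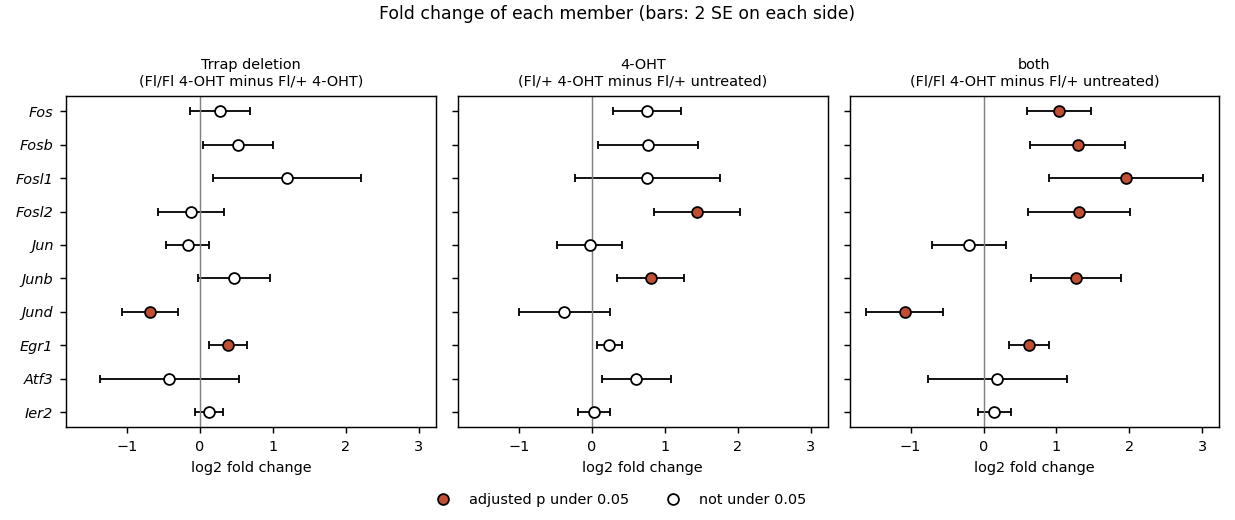
The log2 fold change of each member in the 3 comparisons, with bars of 2 standard errors on each side and filled points for an adjusted p under 0.05 (edgeR quasi-likelihood test, n = 5 per group). 2, 2 and 7 points are filled from left to right, and Jund is the filled point below 0 in the left and right panels.

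Fos, the archetype of the family, was at 79.4, 96.2, 110, 61.8 and 53.2 CPM in untreated mice 19, 24, 26, 35 and 36. After 4-OHT the cultures of the same mice were at 156, 80.6, 128, 138 and 177 CPM, and Fl/Fl mice 27, 28, 29, 37 and 39 were at 121, 131, 173, 220 and 166 CPM. Every Fl/Fl culture lay above every untreated one, while the Fl/+ 4-OHT group overlapped both. Fos rose 2.04-fold from untreated to Fl/Fl 4-OHT cultures (log2 1.03, SE 0.219, adjusted p = 0.00504). With 4-OHT in Fl/+ cultures its log2 difference was 0.76 (SE 0.232) with an adjusted p of 0.0503, just missing the threshold, and the adjusted p fell under 0.05 in 10 of 21 alternative settings. Between the genotypes the log2 difference was 0.27, with an interval of 2 SE from -0.14 to 0.68 (adjusted p = 0.342), and it was 0.12 without Fl/Fl 37 and 0.25 without Fl/Fl 39. Without Fl/Fl 37 the value against untreated cultures was 0.89 (adjusted p = 0.0107) and without Fl/Fl 39 it was 1.02 (0.0118).

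Fosb, whose product resembles Fos, was expressed at a lower level. Untreated mice 19, 24, 26, 35 and 36 had 3.87, 7.46, 6.86, 2.62 and 2.72 CPM, their 4-OHT cultures 10.3, 4.43, 7.19, 8.35 and 9.91 CPM, and Fl/Fl mice 27, 28, 29, 37 and 39 had 9.94, 9.42, 16.6, 11.6 and 9.55 CPM. The Fl/Fl values were again all above the untreated ones, with mouse 29 the highest. Fosb rose 2.45-fold against untreated cultures (log2 1.29, SE 0.324, adjusted p = 0.0116; 1.29 without Fl/Fl 37 and 1.35 without Fl/Fl 39). Neither 4-OHT in Fl/+ cultures (log2 0.77, adjusted p = 0.155) nor the genotype (0.52, adjusted p = 0.115; 0.51 without Fl/Fl 37 and 0.57 without Fl/Fl 39) passed the threshold.

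Fosl1, which encodes FRA-1, was the least abundant member in CPM in both Fl/+ groups. It had 2.61, 1.22, 1.85, 0.693 and 0.589 CPM in untreated mice 19, 24, 26, 35 and 36, then 3.01, 1.14, 1.03, 4.51 and 2.12 CPM after 4-OHT, and 3.14, 2.89, 3.11, 12.6 and 5.07 CPM in Fl/Fl mice 27, 28, 29, 37 and 39. The Fl/Fl group did not overlap the untreated group, and mouse 37 was far above the rest. Fosl1 rose 3.85-fold against untreated cultures (log2 1.95, SE 0.527, adjusted p = 0.0166), which became 1.36 (adjusted p = 0.0346) without Fl/Fl 37 and 1.97 (0.0293) without Fl/Fl 39. With both left out it was 1.13 and no longer called (adjusted p = 0.101). The genotype difference of 1.19 (adjusted p = 0.0967) became 0.59 without Fl/Fl 37 and 1.2 without Fl/Fl 39, and it was called only without Fl/+ 4-OHT 35 (1.55, adjusted p = 0.0497), with the mouse number series as a covariate (0.0409) and with DESeq2 (0.0489).

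Fosl2, which encodes FRA-2, showed the largest fold change of the members with 4-OHT. It stood at 35.9, 32.1, 34.2, 14.5 and 12 CPM in untreated mice 19, 24, 26, 35 and 36 and at 59.1, 74.2, 55.7, 82.9 and 76.7 CPM after 4-OHT. All 5 treated cultures were above all 5 untreated ones. The rise was 2.71-fold (log2 1.44, SE 0.295, adjusted p = 0.00962, or 0.00943 with the mouse as a block) and passed the threshold in all 21 alternative settings. Fl/Fl mice 27, 28, 29, 37 and 39 had 37.2, 64.8, 62.9, 102 and 49 CPM, which surrounded the Fl/+ 4-OHT values, and the genotype difference was -0.13 with an interval from -0.58 to 0.32 (-0.38 without Fl/Fl 37 and -0.06 without Fl/Fl 39, neither called). Against untreated cultures Fosl2 rose 2.47-fold (log2 1.31, SE 0.349, adjusted p = 0.0156; 1.07 without Fl/Fl 37 and 1.39 without Fl/Fl 39), but the call was lost without both libraries (1.1, adjusted p = 0.0622).

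**Figure D2:**
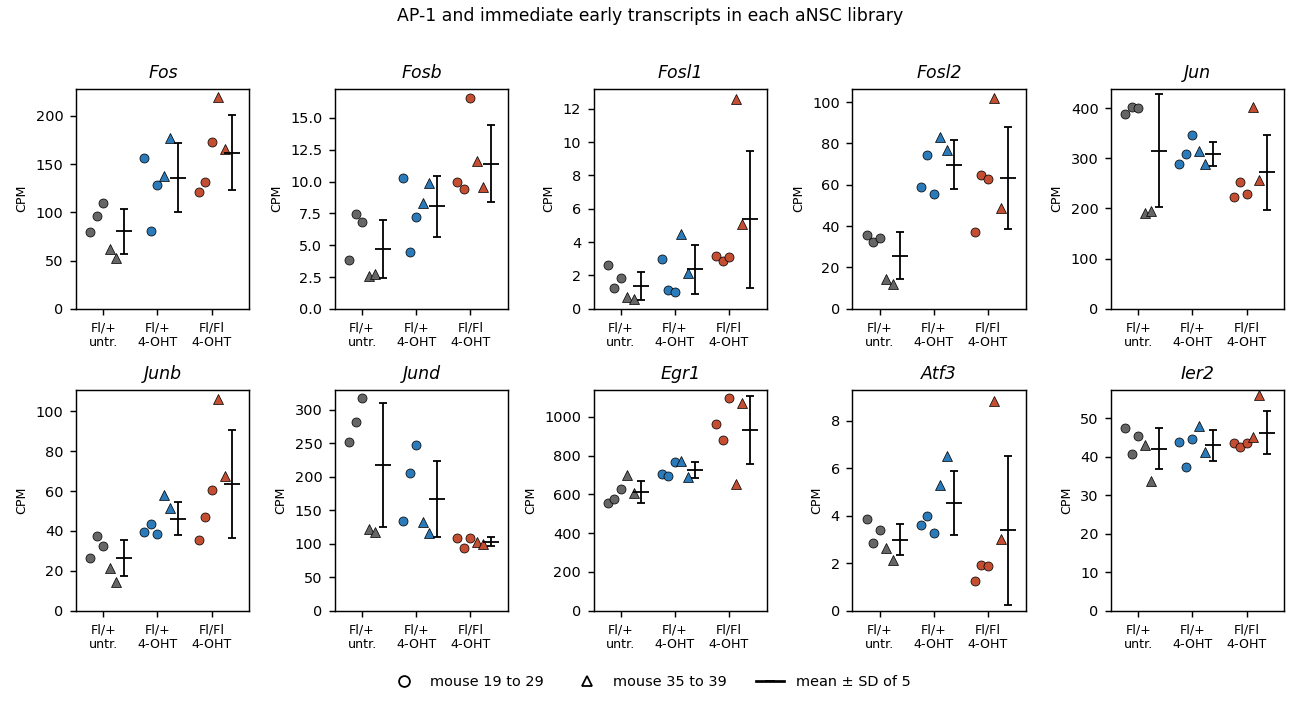
CPM of the 10 members in each library, with 1 panel per gene, colours for the 3 groups, triangles for mice numbered 35 to 39, circles for mice 19 to 29 and a bar for the mean and SD of each group of 5. The untreated triangles (mice 35 and 36) lie below the untreated circles in all members except Egr1 and Ier2, and 1 Fl/Fl triangle (mouse 37) is the highest of its group in Fos, Fosl1, Fosl2, Jun, Junb and Atf3.

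Jun, the central partner of Fos proteins, had nearly the same mean in the untreated (315 ± 112 CPM, SD, n = 5) and the Fl/+ 4-OHT group (309 ± 24 CPM, n = 5). The means hide a split by mouse. Untreated mice 19, 24 and 26 had 389, 403 and 400 CPM and mice 35 and 36 had 191 and 195 CPM, whereas after 4-OHT the 5 cultures had 288, 308, 347, 315 and 289 CPM. Fl/Fl mice 27, 28, 29, 37 and 39 had 222, 252, 228, 403 and 257 CPM, so that 4 lay below every Fl/+ 4-OHT culture and mouse 37 above them all. Jun was not called in any of the 3 comparisons, with a log2 difference of -0.17 between genotypes (interval -0.47 to 0.13, adjusted p = 0.411). Without Fl/Fl 37 that difference was -0.37 and was called lower (adjusted p = 0.00816), and without Fl/Fl 39 it was -0.16.

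Junb, whose product is a weaker activator than Jun and can counter it, rose with 4-OHT. It went from 26.6, 37.2, 32.4, 21.5 and 14.3 CPM in untreated mice 19, 24, 26, 35 and 36 to 39.3, 43.4, 38.5, 57.8 and 51.4 CPM, with no overlap. The rise was 1.75-fold (log2 0.81, SE 0.229, adjusted p = 0.0388; 0.0321 with the mouse as a block). The call was lost without untreated mouse 19 (adjusted p = 0.0771) or 35 (0.084), without 4-OHT mouse 19 (0.0569), 24 (0.0619), 35 (0.0905) or 36 (0.0758), and with all 15 libraries in 1 fit (0.0564). Fl/Fl mice 27, 28, 29, 37 and 39 had 35.2, 46.8, 60.7, 106 and 67.8 CPM. Against untreated cultures this was a 2.42-fold rise (log2 1.27, SE 0.31, adjusted p = 0.01; 1.01 without Fl/Fl 37 and 1.25 without Fl/Fl 39), lost without both libraries (0.85, adjusted p = 0.0603). The genotype difference of 0.47 was not called (adjusted p = 0.169) and was 0.19 without Fl/Fl 37, 0.44 without Fl/Fl 39 and 0.05 without both.

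Jund, the constantly expressed Jun, moved the other way. Untreated mice 19, 24, 26, 35 and 36 had 252, 282, 318, 122 and 118 CPM and their 4-OHT cultures 134, 206, 248, 133 and 116 CPM. Fl/Fl mice 27, 28, 29, 37 and 39 had 109, 93.9, 109, 102 and 99 CPM. All Fl/Fl cultures lay below all cultures of both Fl/+ groups and varied little, although the lowest Fl/+ 4-OHT culture was only slightly higher. Jund fell by 0.69 on the log2 scale between genotypes (SE 0.193, adjusted p = 0.0186; -0.70 without Fl/Fl 37 and -0.69 without Fl/Fl 39) and by 1.08 against untreated cultures (SE 0.263, adjusted p = 0.0102; -1.07 and -1.06). The genotype call was lost with all 15 libraries in 1 fit (-0.71, adjusted p = 0.0647) and without both Fl/Fl 37 and 39 (-0.68, 0.071), and the call against untreated cultures was lost without both (-1.07, 0.0504). 4-OHT in Fl/+ cultures gave -0.38 with a wide interval, -1 to 0.24 (adjusted p = 0.454).

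The exons of Jund are 67.1% G or C, which puts the gene at percentile 99.8 of the tested genes. The levels of genes rich in G and C also differed between libraries. Genes with at least 57.9% GC deviated, relative to genes of middling GC content, by 0.06, 0.08 and 0.14 (log2) in untreated mice 19, 24 and 26 and by -0.16 and -0.24 in mice 35 and 36, and Jund was high in the first 3 and low in the other two. After 4-OHT the values were -0.05, 0.07, 0.22, -0.09 and -0.16 for mice 19, 24, 26, 35 and 36, and Jund was again high in mice 24 and 26. In Fl/Fl cultures they lay between -0.05 and 0.12, within the range of the Fl/+ 4-OHT cultures. With the GC and length trends removed, the genotype difference of Jund was -0.75 (adjusted p = 0.000362) and that against untreated cultures -0.94 (0.000748). With 4-OHT in Fl/+ cultures, Jund went from -0.38 to -0.19 (adjusted p = 0.438), or -0.17 (0.153) with the mouse as a block, and was not called in either. Junb (62.6% GC) and Ier2 (60.9%) are at percentiles 98.7 and 97.1 of GC content.

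Egr1, a zinc finger factor and a classical target of SRF, was the most abundant member in CPM in every group. It stood at 557, 574, 627, 700 and 608 CPM in untreated mice 19, 24, 26, 35 and 36 and at 706, 693, 765, 773 and 688 CPM after 4-OHT. Each of the 5 mice had more Egr1 after 4-OHT, by a ratio between 1.1 and 1.27, but the log2 difference of 0.24 was not called in the unpaired test (adjusted p = 0.0884), and it was with the mouse as a block (0.25, adjusted p = 0.0435). With GC and length trends removed it was 0.1 (adjusted p = 0.534), or 0.11 (0.298) with the block as well, so that call was lost. In Fl/Fl mice 27, 28, 29, 37 and 39 it stood at 964, 882, 1100, 656 and 1070 CPM. Mouse 37 was the lowest of these, below all Fl/+ 4-OHT cultures, and the other 4 were above them all. The genotype difference, a 1.3-fold rise (log2 0.38, SE 0.13, adjusted p = 0.0446), was called in the main test but lost in 12 of 20 alternative settings, including the omission of any library except Fl/Fl 37 (0.30 to 0.39, adjusted p from 0.0579 to 0.106). Without Fl/Fl 37 it was 0.47 (adjusted p = 0.00367) and without Fl/Fl 39 it was 0.32 (0.105). Against untreated cultures Egr1 rose 1.54-fold (log2 0.62, SE 0.137, adjusted p = 0.00618), and this was 0.72 without Fl/Fl 37, 0.57 without Fl/Fl 39, and not called with GC and length trends removed (0.42, adjusted p = 0.0522).

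Atf3, a stress-induced bZIP factor that pairs with Jun proteins, was expressed at a few CPM. Untreated mice 19, 24, 26, 35 and 36 had 3.84, 2.86, 3.39, 2.65 and 2.14 CPM, 4-OHT cultures 3.62, 3.99, 3.28, 5.3 and 6.52 CPM, and Fl/Fl mice 27, 28, 29, 37 and 39 had 1.24, 1.9, 1.87, 8.85 and 3.02 CPM. Mouse 37 had the highest Atf3 of all libraries and the other 4 Fl/Fl cultures the lowest of the cultures given 4-OHT. No comparison was called, with -0.42 between genotypes (interval -1.37 to 0.52). Without Fl/Fl 37 the genotype difference was -1.18 and was called lower (adjusted p = 0.0123), and without Fl/Fl 39 it was -0.39. Ier2, an immediate early gene for a nuclear protein, was the flattest member, with group means of 42.1 ± 5.38, 43 ± 3.97 and 46.3 ± 5.63 CPM (SD, n = 5 each) and log2 differences of 0.12, 0.03 and 0.15 in the 3 comparisons, none called. The genotype difference of Ier2 was 0.11 without Fl/Fl 37 and 0.03 without Fl/Fl 39. The interval of the difference against untreated cultures, from -0.08 to 0.37, excludes a change of the size seen in Fos.

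Several members also differed with the mouse numbers. In untreated cultures, mice 35 and 36 were below mice 19, 24 and 26 without overlap in 8 of 10 members (not in Egr1 and Ier2), by a ratio of group means from 1.4 for Atf3 to 2.95 for Fosl1. After 4-OHT mice 35 and 36 were instead above the other 3, without overlap, in Fosl2, Junb and Atf3 (ratios of 0.79, 0.74 and 0.613 for mice 19, 24 and 26 over mice 35 and 36) and below them in Jund (1.57). In Fl/Fl cultures mice 37 and 39 lay above mice 27, 28 and 29, without overlap, in Fosl1, Jun, Junb, Atf3 and Ier2 (ratios of 0.346, 0.71, 0.546, 0.281 and 0.853 for the lower-numbered mice over the other two). The labels give no batch for the mouse numbers. The ratio of the 4-OHT to the untreated culture of the same mouse accordingly differed. Fosl2 had ratios of 5.71 and 6.41 in mice 35 and 36 and of 1.65, 2.32 and 1.63 in mice 19, 24 and 26, above 1 in all 5. Junb had 2.69 and 3.59 against 1.48, 1.17 and 1.19, also above 1 in all 5. Fos was above 1 in 4 of 5 mice, with 2.24 and 3.32 against 1.96, 0.838 and 1.16. Jun went in opposite directions, 1.65 and 1.49 against 0.741, 0.764 and 0.867, and Jund was below 1 in mice 19, 24 and 26 (0.533, 0.729 and 0.78) and close to 1 in mice 35 and 36 (1.09 and 0.985).

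**Figure D3:**
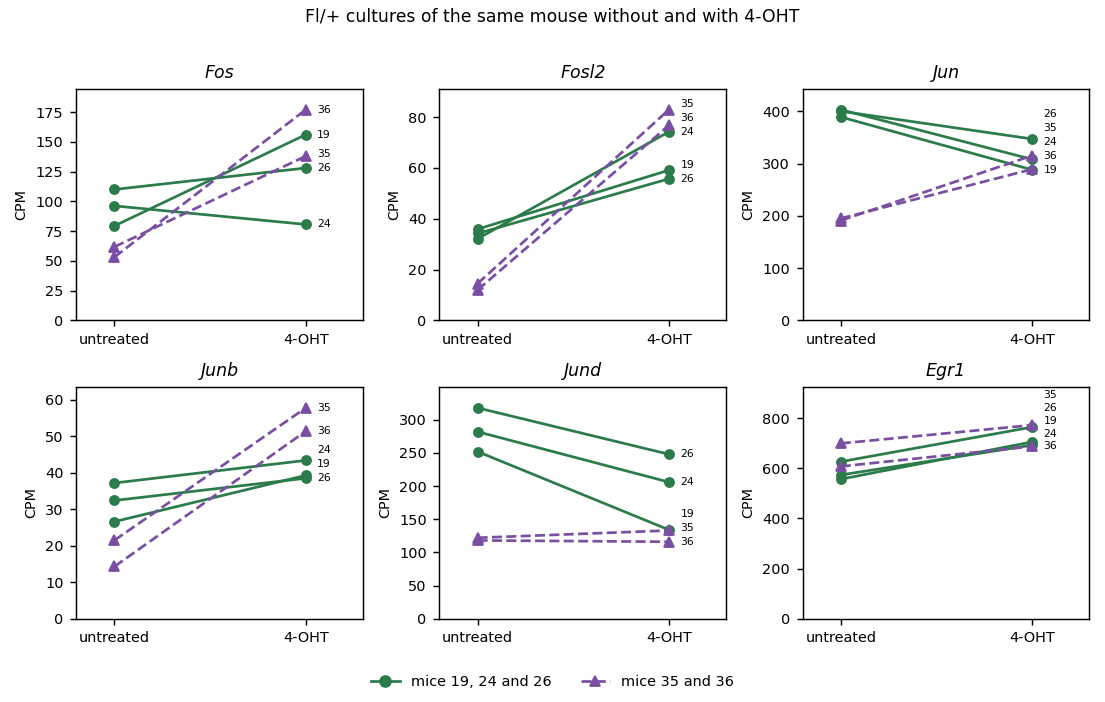
CPM of 6 members in the untreated and the 4-OHT culture of each Fl/+ mouse, joined by a line, with dashed lines for mice 35 and 36 and mouse numbers stacked in the order of the 4-OHT values. Fosl2, Junb and Egr1 are higher with 4-OHT in all 5 mice, and Jun is lower in mice 19, 24 and 26 and higher in mice 35 and 36.

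Within the mice numbered under 30 (3 per group), the mean log2 differences between genotypes were -0.87 for Jund, 0.44 for Egr1, -0.42 for Jun and -0.94 for Atf3, each with no overlap. Within the mice numbered over 30 (2 per group) they were -0.30 for Jund, without overlap, and 0.20, 0.09 and -0.15 for the others, with overlap, while Fosl1 was higher by 1.24 and Junb by 0.64 in Fl/Fl cultures, without overlap. For 4-OHT the 3 mice under 30 gave 0.87 for Fosl2, 0.34 for Junb and 0.31 for Fos, and the 2 over 30 gave 2.55, 1.61 and 1.44. Against untreated cultures Fos was higher in Fl/Fl cultures by 0.56 and 1.73 in the 2 sets and Jund lower by 1.44 and 0.25, in both sets without overlap. The direction of these called members was thus the same in both sets, and the sizes were not. With the mouse number series (under or over 30) as a covariate, no call of a member was lost in the 3 comparisons. With 4-OHT, Fosl2 (log2 1.55, adjusted p = 0.00415) and Junb (0.84, 0.0275) stayed called and Fos became called (0.79, 0.0369), and Jun gave 0.06, against -0.03 without the covariate. Between genotypes Jund (-0.66, 0.0119) and Egr1 (0.38, 0.0443) stayed called, and Fosl1 became called (1.08, 0.0409). Against untreated cultures the same 7 members were called.

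Per kilobase of exon the levels can be compared between genes. In untreated cultures Egr1 (mean 137 CPM per kb) and Jund (131) led, and their order was not the same in all libraries, as Egr1 exceeded Jund in 2 of 5. Jun (98.9), Fos (34.1), Ier2 (27.7), Junb (11.5), Fosl2 (2.66), Atf3 (1.38), Fosb (0.754) and Fosl1 (0.685) followed. In Fl/Fl cultures Egr1 was at 208, Jun at 85.4, Fos at 68.9 and Jund at 61.5 CPM per kb. Egr1 exceeded its neighbour in all 5 libraries there, while Fos exceeded Jund in 3 of 5.

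Fos made up most of the Fos family transcripts in every group, with 89.6 ± 2.62% of the family's CPM per kb in untreated, 85.1 ± 3.90% in Fl/+ 4-OHT and 86.5 ± 2.15% in Fl/Fl cultures (SD, n = 5). The sum of the family was 38.2 ± 11.7, 67.4 ± 16 and 79.9 ± 20.8 CPM per kb. The sum of the Jun family was 241 ± 93.7, 217 ± 38.5 and 175 ± 33.9 CPM per kb. Jund was 53.5 ± 2.66% of it in untreated, 45.2 ± 7.33% in Fl/+ 4-OHT and 36.2 ± 6.51% in Fl/Fl cultures. Junb was 4.92 ± 1.02%, 9.53 ± 2.73% and 15.3 ± 3.76%, and Jun 41.5 ± 2.37%, 45.3 ± 4.79% and 48.5 ± 4.00%. The Jund share lay between 51.3 and 57.7% in all untreated cultures, mice 35 and 36 included, and between 26.2 and 43.5% in Fl/Fl cultures. These shares follow from the levels above and were not tested.

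**Figure D4:**
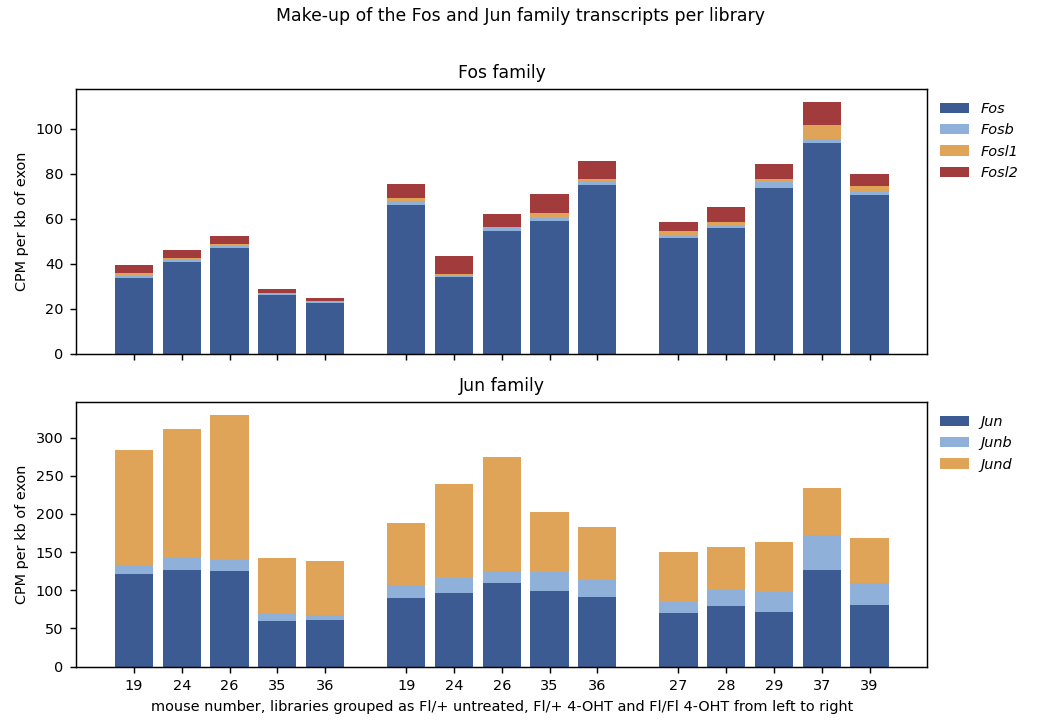
Summed CPM per kb of exon of the Fos family (top) and the Jun family (bottom) in each library, stacked by member, with the mouse number below. Fos fills most of each bar at the top, and the Jund part of the lower bars is tallest in untreated mice 19, 24 and 26 and takes 26.2 to 43.5% of the bars in Fl/Fl cultures.

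Of 27 other immediate early genes tested after Trrap deletion, 6 were called higher and 1 lower, beside 31.7% of all genes called (median log2 0.08, against 0.02 over all genes), and it was 5 and 4 without Fl/Fl 37 and 4 and 1 without Fl/Fl 39. Of 28 tested with 4-OHT, 7 were higher and none lower, beside 13.8% of all genes (median 0.26, against -0.01), with 4 to 11 higher over 21 alternative settings. For both together 11 were higher and 1 lower of 27, beside 30.7% (median 0.38, against 0), and 8 higher without Fl/Fl 39. After Trrap deletion Ctgf (Ccn2), which encodes a matrix-associated protein and a YAP target, rose 4.63-fold from 0.979 ± 0.196 to 4.52 ± 1.67 CPM (adjusted p = 0.000347). Arc, a synaptic activity gene, rose from 37.5 ± 10.7 to 67.6 ± 12 CPM (adjusted p = 0.00614), and Egr4 from 13.3 ± 5.08 to 23.1 ± 6.18 CPM (0.0403). With 4-OHT, Ier3 rose 4.10-fold from 14.8 ± 6.06 to 60.6 ± 24 CPM (adjusted p = 0.0024), Sik1, a salt-inducible kinase, from 4 ± 0.935 to 10.3 ± 1.29 CPM (0.00127), and Egr4 from 5.96 ± 1.96 to 13.3 ± 5.08 CPM (0.0285).

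Of 22 genes known as AP-1 targets, 3 were called higher and 1 lower after Trrap deletion, beside 31.7% of all genes called. With 4-OHT 7 were higher and 1 lower of 21 (6 to 11 higher over the alternative settings), beside 13.8% of all genes. For both together 13 were higher and 1 lower of 22 (12 higher without Fl/Fl 37 or without Fl/Fl 39), beside 30.7% (median log2 0.83). With 4-OHT the metalloproteinase inhibitor Timp1 rose 7.09-fold from 3.14 ± 1.36 to 22.3 ± 11.7 CPM (adjusted p = 0.0017), the gelatinase Mmp2 5.95-fold from 1.23 ± 0.331 to 7.35 ± 4.27 CPM (0.00154), and Plaur, the urokinase receptor gene, 5.30-fold from 0.468 ± 0.233 to 2.5 ± 0.575 CPM (0.00136). After Trrap deletion the members that moved most were Hmox1 (69.3 ± 12 to 174 ± 43.1 CPM, adjusted p = 0.000287) and Nqo1 (3.72 ± 0.63 to 8.81 ± 1.35 CPM, 0.00038), enzymes of the oxidative stress response that are also targets of NRF2, while the membrane protease Mmp14 fell by 0.57 on the log2 scale (0.0138).

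Of the kinases and factors upstream of the members, 1 was called with 4-OHT (0 to 3 higher over the alternative settings). This was Mkl1 (Mrtfa), a co-activator of SRF, among 25 tested (34.7 ± 3.37 to 46.3 ± 8.14 CPM, adjusted p = 0.0464). After Trrap deletion 3 were higher and 8 lower, and 2 and 7 without Fl/Fl 39. Rps6ka1, the kinase RSK1, rose 3.23-fold from 27.4 ± 12.6 to 87.2 ± 34.2 CPM (adjusted p = 0.0048), whereas its relative Rps6ka2 fell by 0.97 (0.000721) and the kinase gene Map3k1 by 0.91 (0.00289) on the log2 scale. Of 17 phosphatase, Sprouty and mRNA decay genes that restrain the pathway, 3 were higher and 5 lower after Trrap deletion (3 lower without Fl/Fl 37, 2 without Fl/Fl 39) and 3 higher and none lower with 4-OHT. Dusp5 rose 1.90-fold and Dusp14 1.75-fold after Trrap deletion (adjusted p = 0.00247 and 0.0125) and Dusp8 fell by 0.86 (0.00949). With 4-OHT, Dusp4 rose 2.40-fold, Spry4 1.81-fold and Dusp16 1.39-fold (adjusted p = 0.00127, 0.0303 and 0.00674).

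The list drawn as bZIP partners of AP-1 holds other bZIP genes, whether or not their products pair with Fos or Jun proteins. Of 16 tested, none was higher and 5 were lower after Trrap deletion (3 without Fl/Fl 39). Among them were Batf3 (-0.95, adjusted p = 0.0233), Creb1 (-0.55, 0.00392) and Jdp2 (-0.44, 0.0381). With 4-OHT 2 were higher and 1 lower, each count running from 1 to 5 over the alternative settings. Nfe2l2, the gene of NRF2, rose from 136 ± 10.4 to 183 ± 17.4 CPM (adjusted p = 0.00956) and Mafg from 58.3 ± 2.15 to 71 ± 1.88 CPM (0.0123). Heat shock genes, which respond to proteotoxic stress, had 1 of 11 called lower after Trrap deletion (Dnajb1, -0.24, adjusted p = 0.00849; 1 to 3 over the alternative settings), none with 4-OHT (0 to 2 higher) and 1 higher for both together. Counts for all lists are to be read against the shares of all genes called in each comparison, given above.

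**Figure D5:**
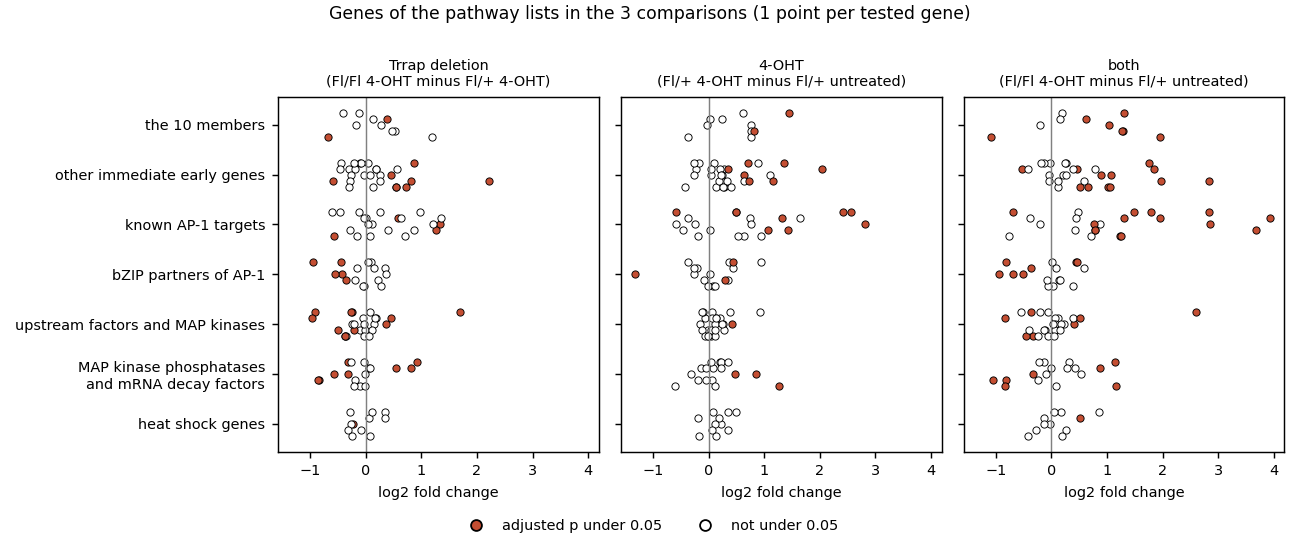
The log2 fold change of each tested gene of the pathway lists in the 3 comparisons, 1 point per gene, filled where the adjusted p is under 0.05 (edgeR quasi-likelihood test). With 4-OHT, 7 of 28 other immediate early genes and 7 of 21 AP-1 targets are filled above 0, and no heat shock gene is filled.

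Some markers of glial cells also differed between the groups, not all in the same direction. Of 9 oligodendrocyte markers, 6 rose with 4-OHT and none fell, among them Mag (1.01 ± 1.09 to 11.2 ± 8.53 CPM, adjusted p = 0.0118), Mbp (16.3 ± 16.7 to 118 ± 95.5 CPM, 0.0205) and Sox10 (25.1 ± 19.2 to 96.4 ± 20.8 CPM, 0.0163). None of the 9 was called between genotypes, and 1 lower without Fl/Fl 37. For both together 6 were higher (4 to 6 over the alternative settings) and 1 lower (0 to 2). The summed level of the list, led by Olig1 and Olig2, ranged from 3280 to 3990 CPM in untreated, 2990 to 4060 CPM in Fl/+ 4-OHT and 3130 to 4630 CPM in Fl/Fl cultures, and the defining marker Mog was at 0 in 3 untreated cultures. Fl/Fl 37, the library highest in 6 members, also had the highest Mbp (1010 CPM, against 81 to 154 CPM in the other Fl/Fl cultures) and Gfap (2260 CPM, against 231 to 532 CPM). Its Olig1 (1700 CPM) and Olig2 (586 CPM) were instead the lowest of the Fl/Fl cultures, which reached 2080 and 776 CPM. The astrocyte list ranged from 2940 to 4020, 3710 to 4730 and 3140 to 6520 CPM in the 3 groups, with 1 of 7 higher (Gfap, 57.7 ± 43.3 to 548 ± 510 CPM, adjusted p = 0.0283) and 3 lower after 4-OHT (among them Gjb6, by 1.93 on the log2 scale, adjusted p = 0.0209, and S100b, from 61.9 ± 41.8 to 16.4 ± 7.21 CPM, adjusted p = 0.0187), and with 1 higher (Aldoc, 510 ± 39.8 to 658 ± 47.5 CPM, adjusted p = 0.0044) and none lower after Trrap deletion, where 2 were lower without Fl/Fl 37. For both together 1 of the 7 astrocyte markers was higher and 3 were lower (1 to 3 over the alternative settings). The part of these glial markers in the results on Fos, Fosl1, Fosl2, Junb and Atf3 was not tested.

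Stem cell markers showed 4 of 11 lower after Trrap deletion, and 1 higher (0 to 2 over the alternative settings) and 3 lower (3 to 6) with 4-OHT, with summed levels of 10200 to 14200, 9780 to 11800 and 8130 to 12400 CPM. Hes5, a Notch target, fell by 1.87 (log2) with 4-OHT and by 1 after Trrap deletion (adjusted p = 0.00517 and 0.0176). After Trrap deletion Prom1 fell from 27 ± 5.09 to 17 ± 2.5 CPM (adjusted p = 0.00709) and Fabp7 from 2930 ± 451 to 1900 ± 261 CPM (0.00552). With 4-OHT the glutamate transporter gene Slc1a3 fell by 0.70 on the log2 scale (adjusted p = 0.0113). Neuron markers summed to 865 to 1140, 826 to 1010 and 564 to 815 CPM, with 1 higher and 2 lower of 8 after Trrap deletion, where Dcx fell by 2.51 and Tubb3 by 1.04 on the log2 scale (adjusted p = 0.00123 and 0.0334). Without Fl/Fl 39 the count of lower neuron markers was 1, and it ran from 1 to 3 over the alternative settings. With 4-OHT 1 of 7 was lower (Gad1, by 1.04, adjusted p = 0.0235), with 0 to 4 over the settings. For both together 1 neuron marker was higher and 6 were lower of 8 (4 to 6 lower over the settings). Of the 11 stem cell markers 5 were then lower (3 to 6) and none higher. Microglia markers summed to at most 2.01 CPM with 4 of 9 genes at 0 throughout each group, and vascular and mesenchymal markers to at most 26.5 CPM, with none called.

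The genes whose pattern over the 15 libraries was most like that of Fos, out of 13311 genes averaging 1 CPM or more, were Mbp, the myelin basic protein gene (Pearson r 0.94, Spearman rho 0.97), Socs3, a feedback inhibitor of cytokine signalling (0.94 and 0.93), and Ifitm10 (0.93 and 0.90). The group means of Mbp were 16.3, 118 and 294 CPM, so a part of this likeness follows the groups. For Jun they were Arl6ip5 (0.92 and 0.90), G6pdx (0.90 and 0.90) and Cd9 (0.90 and 0.92). Among the members Fos was closest to Fosb (r 0.93), Junb (0.90) and Fosl2 (0.82), whereas Jun was closest to Jund (0.67) and Jund ran against Egr1 (-0.60). These correlations describe the 15 libraries, which share mice and groups.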

How the data were processed

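The authors sequenced mRNA from 15 cultures of aNSCs as stranded single-end libraries, pooled over the same lanes. Per the labels, bcl2fastq 1.8.4, STAR 2.5.4b (GRCm38) and featureCounts 1.5.0 were used, and the deposited values are raw counts of uniquely assigned reads per Ensembl gene, without normalization. No molecular identifiers were used, so floors cover counting error only. Reads mapping to several places are not counted. No member overlapped a gene on its own strand. On the other strand Junb overlapped Prdx2 (up to 741 CPM) and Fosl1 overlapped Ccdc85b (up to 57.8 CPM). Jun, Jund and Atf3 overlapped genes of at most 2.24 CPM there. Reads assigned to the wrong strand were not measured.

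Symbols and exon lengths came from GENCODE M21 (GRCm38), which matched 53706 of 53801 genes and left 95 unmatched. Each comparison used its own 10 libraries. Genes kept by filterByExpr (minimum count 10) were tested with the edgeR 4.0.16 quasi-likelihood F test in R 4.3.3 after TMM scaling, without covariates, and called at a Benjamini-Hochberg adjusted p under 0.05. The SE of a log2 fold change was derived as its absolute value over the square root of the F statistic. An interval is 2 of these SE on each side. Adjusted p-values in the text are from this test unless another is named. Mean differences within mouse sets were taken on log2(CPM + 0.5). The cultures are replicates by mouse, and whether more than 1 culture per mouse was pooled is not given in the sources used here. The Fl/+ cultures with and without 4-OHT are paired by mouse in the labels: deviations from the group means correlated between the 2 cultures of a mouse with r from 0.15 to 0.64 over 14589 genes, and between different mice with r from -0.56 to 0.35. The labels and the methods differ on the dose and the schedule of 4-OHT, so the dose is not printed. DESeq2 1.42.0, other scalings, filters, covariates, the replicate block and the omission of each library were alternatives.

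The 10 members, the 12 further gene lists (other immediate early genes, AP-1 targets, bZIP partners, upstream factors, phosphatases and decay factors, heat shock genes, and markers of 6 cell types) and the tests were chosen with earlier results of these data known. Some promoter motifs were chosen after the sequences were seen. Named are all members, Trrap, the sex-linked genes, from each list at most 3 called genes with the largest log2 fold change and a mean of at least 1 CPM after Trrap deletion and after 4-OHT, and the 3 genes most like Fos and Jun. 2 genes that this rule names are not reported here. Nes, Sox2, Olig1, Olig2 and Mog were named after their values were seen. No column of values was left out.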

Additional observations from a re-analysis of the deposited data

Results flagged for a closer look

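In 4 of 33 groups of 5 libraries, each the values of 1 gene in 1 treatment group, 1 library lay apart from the rest by Dixon's test, which flags about 1 in 20 groups by chance. In Fl/Fl 37, Fosl1 was at 12.6 CPM (next library 5.07), Jun at 403 CPM (next 257) and Atf3 at 8.85 CPM (next 3.02). In Fl/Fl 39, Ier2 was at 56.2 CPM (next 45.3). The flags in Fl/Fl 37 come from the same library, so they are not independent of one another.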

How the results depend on the processing

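With 2 members called after Trrap deletion, 1 was called without the filter on low counts, with all 15 libraries in 1 fit, with sex as a covariate and with GC and length trends removed, and 1 to 4 when single libraries were left out (4 without Fl/Fl 37). The sex covariate took the labelled sex, so Fl/Fl 39 entered as female against its Xist and Eif2s3y values. With 4-OHT, DESeq2 and library size alone called 4 instead of 2, and single libraries gave 1 to 3. For both together all single omissions gave 7, and leaving out both Fl/Fl 37 and 39 gave 3. With 4-OHT the count of all genes called rose from 2044 to 3170 with the series covariate, to 3809 with the replicate block and to 4214 with the block and GC trends removed, and was 1271 to 2522 when single libraries were left out (1271 without 4-OHT mouse 19, 1311 without 35). The block added Egr1 to the called members and changed no other member's call.

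Among uncalled members the sign turned for Ier2 after Trrap deletion with GC trends removed (-0.01), for Jun with 4-OHT under library size alone (0.02), sex (0.01), the series covariate (0.06) and the block (0.05), and for Atf3 in both together with sex (-0.08), series (-0.07) or Fl/Fl 37 and 39 left out (-0.83). Leaving out single libraries gave ranges of -0.38 to 0.01 for Fosl2 after Trrap deletion, -0.17 to 0.08 for Jun and -0.04 to 0.09 for Ier2 with 4-OHT, and -0.55 to 0.41 for Atf3 in both together. The GC, block with GC and Fl/Fl 37 and 39 settings were chosen after the data were seen. The cause of these shifts was not tested. Higher and lower calls with 4-OHT were 1088 and 956, but 1396 and 712 with library size alone and 947 and 1814 with GC trends removed. For both together they were 2357 and 2263, 3150 and 1603, and 1977 and 3345. Of 1464 list counts recomputed, 215 moved by more than 1.5 times. Fosb, Fosl1 and Atf3, at a few CPM, rest on the fewest reads.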
